A study of Mus musculus with 11 samples.

Results

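The mitochondrial ribosomal protein genes were taken as the rows of the count table whose name is Mrpl or Mrps followed by a number and at most 1 letter, without pseudogenes. There were 77 of them among 47517 rows, and all 77 had enough reads to be tested. RNA-seq counts came from forelimb buds of C57BL/6 mouse embryos at E10.5. Mutants were Gmnn f/f; Prx-Cre (6 libraries) and controls were Gmnn +/f; Prx-Cre (5 libraries). Both groups thus carry the transgene and at least 1 floxed allele of Gmnn, which encodes the replication licensing inhibitor Geminin. Prx-Cre acts in limb bud mesenchyme, so that blood, vessels, nerve and ectoderm in the bud are not its targets. The embryos came from 4 litters, called A to D, each with both genotypes. Controls 1 and 2 shared litter A with mutants 1 and 2, and control 5 shared litter D with mutants 3 and 4. Litters B and C gave a single pair each, of control 3 with mutant 6 (B) and of control 4 with mutant 5 (C). Pairs were matched by somite number.

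Mitochondrial ribosomes translate the few proteins that the mitochondrial genome still encodes, all of them parts of the respiratory chain and ATP synthase. Their rRNA comes from mitochondrial DNA, but all of their proteins are encoded in the nucleus, made in the cytoplasm and imported. Some of these proteins descend from bacterial ribosomal proteins and others joined only in mitochondria. Here 50 of the genes were placed in the large subunit and 26 in the small one. Mrps30 and Mrps18a, named for the small subunit, belong to the large one. The remaining gene, Mrps36, encodes a part of the 2-oxoglutarate dehydrogenase complex and not a stable subunit. A bacterial counterpart is known for 45, 29 are specific to mitochondria, and Mrps18a and Mrps18b are extra copies of the bacterial S18 protein beside Mrps18c.

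The genes are scattered over 17 chromosomes, with at most 10 on one (chromosome 11). RefSeq promoters (GRCm38.p6, which is mm10; 250 bases before to 50 after the start) were matched by symbol for 68 of the 77. They were searched on both strands for letters of 3 factors known for nuclear genes of mitochondria. The NRF1 motif was found in 13 (19.1%) of the 68 genes and in 5.19% of 27025 genes with a promoter. The ETS letters CCGGAAG, as bound by GABP, were in 25 (36.8%) against 9.93%, and the YY1 motif was in 5 (7.35%) against 0.755%. At least 1 of the 3 was in 37 of 68 genes (54.4%), against 14.5% of all. The shares over all genes include genes not tested here, and the share over tested genes alone was not computed. The members' windows had a median GC content of 58.0%, against 52.8% over all, and matches are a description of letters, not of bound sites. The 6 promoters printed here, 5′ to 3′ on the strand of their gene, have their matches in capitals. Mrpl32, with an NRF1 match, had the smallest p of the set. Mrps21 is the highest per length in the small subunit and holds an NRF1 and an ETS match. Mrpl52 holds 2 ETS matches, Mrps18a an ETS and a YY1 match, and Mrps11 a YY1 match in a window that shares 141 bases with that of Mrpl46, its neighbour on the other strand. Mrps15, which varied against the others, holds no match. Mrpl36, which varied most closely with the others and is not printed, holds none either. Whether matches go with co-variation was not tested. The windows of the 6 printed promoters are chr13:14612988-14613287 (-), chr3:95871465-95871764 (-), chr14:54426659-54426958 (+), chr17:46110754-46111053 (+), chr7:78782881-78783180 (+) and chr4:126046678-126046977 (+) in the order printed.
Mrpl32: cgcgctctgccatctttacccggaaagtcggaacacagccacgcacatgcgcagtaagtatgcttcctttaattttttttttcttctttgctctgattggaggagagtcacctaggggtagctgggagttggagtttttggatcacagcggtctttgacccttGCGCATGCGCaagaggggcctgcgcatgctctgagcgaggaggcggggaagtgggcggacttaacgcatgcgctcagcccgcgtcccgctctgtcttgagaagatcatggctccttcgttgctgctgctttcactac
Mrps21: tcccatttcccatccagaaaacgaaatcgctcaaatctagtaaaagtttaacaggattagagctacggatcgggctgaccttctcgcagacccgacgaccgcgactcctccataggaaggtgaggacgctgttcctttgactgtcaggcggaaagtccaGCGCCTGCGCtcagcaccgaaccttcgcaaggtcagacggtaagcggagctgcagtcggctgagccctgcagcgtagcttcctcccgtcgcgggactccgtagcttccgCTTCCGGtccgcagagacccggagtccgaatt
Mrpl52: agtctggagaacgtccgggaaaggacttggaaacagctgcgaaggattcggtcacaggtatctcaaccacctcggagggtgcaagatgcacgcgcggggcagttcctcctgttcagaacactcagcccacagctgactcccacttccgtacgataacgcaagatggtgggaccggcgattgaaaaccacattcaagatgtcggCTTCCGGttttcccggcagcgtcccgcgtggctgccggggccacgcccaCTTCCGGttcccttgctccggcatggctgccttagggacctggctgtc
Mrps18a: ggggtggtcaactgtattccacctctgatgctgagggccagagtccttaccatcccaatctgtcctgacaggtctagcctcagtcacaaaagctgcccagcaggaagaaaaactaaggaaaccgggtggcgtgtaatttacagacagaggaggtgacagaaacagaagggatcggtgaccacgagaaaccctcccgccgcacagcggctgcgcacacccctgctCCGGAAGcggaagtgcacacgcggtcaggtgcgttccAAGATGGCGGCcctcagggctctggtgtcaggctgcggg
Mrps11: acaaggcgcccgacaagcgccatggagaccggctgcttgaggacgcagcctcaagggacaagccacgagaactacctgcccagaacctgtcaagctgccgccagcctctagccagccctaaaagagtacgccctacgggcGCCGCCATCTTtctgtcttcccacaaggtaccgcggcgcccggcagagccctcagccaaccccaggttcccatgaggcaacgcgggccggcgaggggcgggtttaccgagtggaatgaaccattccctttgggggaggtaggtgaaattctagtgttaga
Mrps15: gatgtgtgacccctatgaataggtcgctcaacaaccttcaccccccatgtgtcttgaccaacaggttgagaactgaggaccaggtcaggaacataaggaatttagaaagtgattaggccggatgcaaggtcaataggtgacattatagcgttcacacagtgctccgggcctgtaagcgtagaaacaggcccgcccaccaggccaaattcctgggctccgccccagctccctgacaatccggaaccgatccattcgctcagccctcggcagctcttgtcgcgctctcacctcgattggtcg

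Library totals were 14777833 to 19733288 reads in controls and 14721181 to 17034741 in mutants. Levels are given as CPM, read counts divided by library size after TMM scaling. The tests are edgeR's quasi-likelihood test, blocked on litter, and adjusted p-values cover all 15821 genes tested. Gmnn checked the labels: Gmnn stood at 150.3, 199, 139, 171 and 239 CPM in controls 1 to 5 and at 99.5 to 138 CPM in the 6 mutants (median 111), and every mutant lay below every control (log2 fold change -0.67, SE 0.10, adjusted p 0.0291, edgeR; adjusted p 0.0549 without the litter block and 0.054 to 0.128 when 1 library was left out, for 8 of 11 such libraries). Limb bud mesenchyme markers (10 genes, Prrx1 and Tbx5 among them) summed to 643 to 772 CPM in controls and 668 to 795 CPM in mutants, and none of them passed the test. Control 5 stood apart from the other controls in much of what follows, and the calls that change without it are given. It is the only control of litter D, so without it that litter drops out of the genotype comparison. Some transcripts carry long runs of T, and libraries differed in how much of their RNA came from such transcripts. The T-run index used here comes from the same counts. It is the mean longest run of T over the tested genes, members included, weighted by CPM. It was 10.8, 10.3, 10.8, 10.7 and 9.75 bases in controls 1 to 5 and 9.87, 9.21, 9.65, 9.63, 10.2 and 9.85 bases in mutants 1 to 6.

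Transcripts of the set made up 1.04% to 1.31% of counts in controls and 1.17% to 1.43% in mutants. Their summed level was 10198, 11739, 10118, 11066 and 13569 CPM in controls 1 to 5. Mutants 1 to 6 had 12277, 14973, 13245, 13512, 11769 and 11833 CPM. The control mean came to 11338 ± 1414 CPM (SD, n = 5) and the mutant mean to 12935 ± 1232 CPM (SD, n = 6), a ratio of 1.14, and the groups overlapped. Control 5 was higher than every mutant but mutant 2, and the other 4 controls lay below all 6 mutants. The large and the small subunit kept step: the ratio of their sums was 3.004 to 3.21 in controls and 3.01 to 3.19 in mutants. In bulk tissue, more cells with a transcript and more transcript per cell cannot be told apart. Libraries with a high summed level mostly had a low T-run index. Mutant 2 had the highest sum and the lowest index, and controls 1 and 3 had the 2 lowest sums and the 2 highest indices. The T-run index was a covariate in 1 alternative fit, given further on, and its part in the result was not tested.

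**Figure D1:**
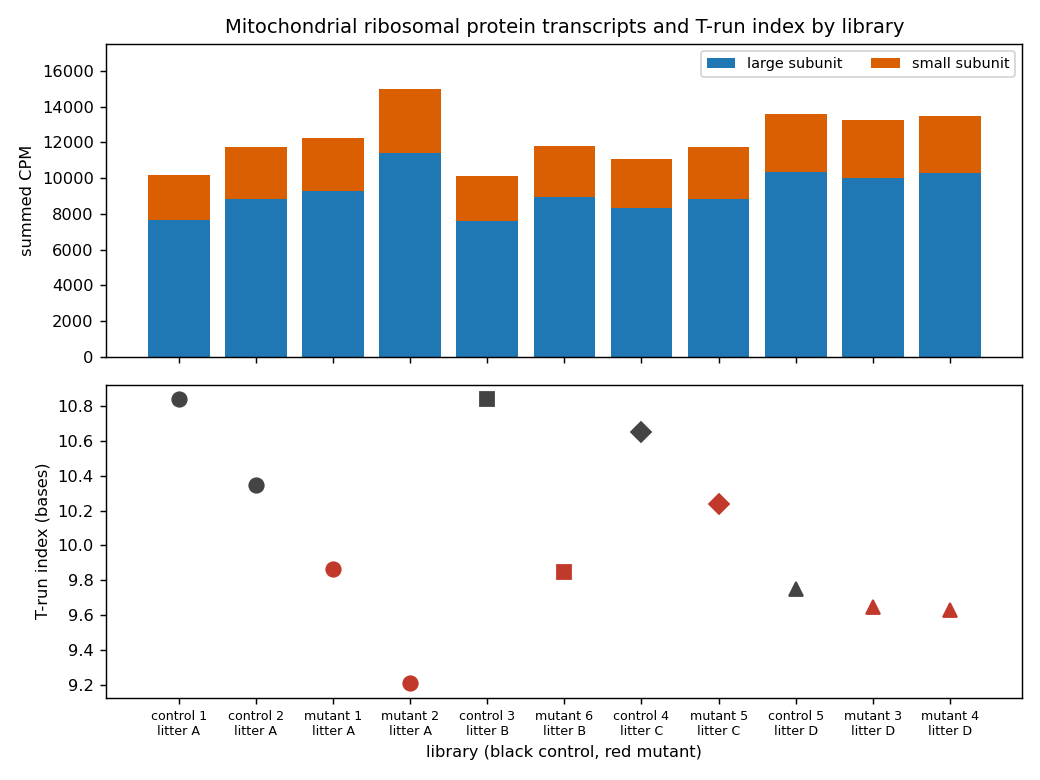
Upper bars: summed CPM of large subunit (blue) and small subunit (orange) transcripts in each of 11 libraries, ordered by litter. Lower points: T-run index in bases for the same libraries (black control, red mutant); mutant 2 has the highest sum, 14973 CPM, and the lowest index, 9.21.

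The level per length, CPM per kb of exon, spread over 1013-fold between the highest and the lowest gene, although most of these proteins are present once in a ribosome. The median was 66.7 CPM per kb, against 2.99 over all genes tested. Length here is that of a gene's merged exons, with a median of 1777 bases in members and 3615 over all genes tested. Differences in length enter all values per kb. By class the median was 86.9 CPM per kb for the large and 45.4 for the small subunit, and 87.0 for genes with a bacterial counterpart and 53.6 for those without. Mrpl42, a mitochondria-specific protein of the large subunit (chromosome 10, 95480806 to 95501927, minus strand, mm10), was highest, at 648 CPM per kb (range 514 to 883) over the 11 libraries. Mrpl28 followed at 439 CPM per kb (range 374 to 510.1). Mrpl34, whose bacterial counterpart is among the smallest ribosomal proteins, was at 346 CPM per kb (range 284 to 429), and Mrps21, the highest of the small subunit, at 339 CPM per kb (range 259 to 465.8). Mrpl42 and Mrpl28 did not overlap over libraries, while the ranges of Mrpl34 and Mrps21 did. Mrpl12, which forms the stalk of the large subunit, had 182 CPM per kb and ranked 12.

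The lowest 4 were Mrpl53 at 0.64 CPM per kb (range 0.376 to 1.1), Mrpl23 at 2.19 CPM per kb (range 1.24 to 2.7), Mrps34 at 2.57 CPM per kb (range 0.72 to 10.8) and Mrps26 at 3.63 CPM per kb (range 2.65 to 5.13). Reads over exons of 2 genes were not counted, and by GENCODE M21 another gene covers 88.0% of the exon sequence of Mrpl53 and 77.8% of that of Mrps34, so that both levels are uncertain. The same holds, by smaller shares, for 16 other members with more than 10% of exon bases shared, of which Mrps25 had the most, 69.8%. Mrpl23 shares none and Mrps26 0.18%. Their low values are the values of these 2 names in the file, and the cause was not tested.

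**Figure D2:**
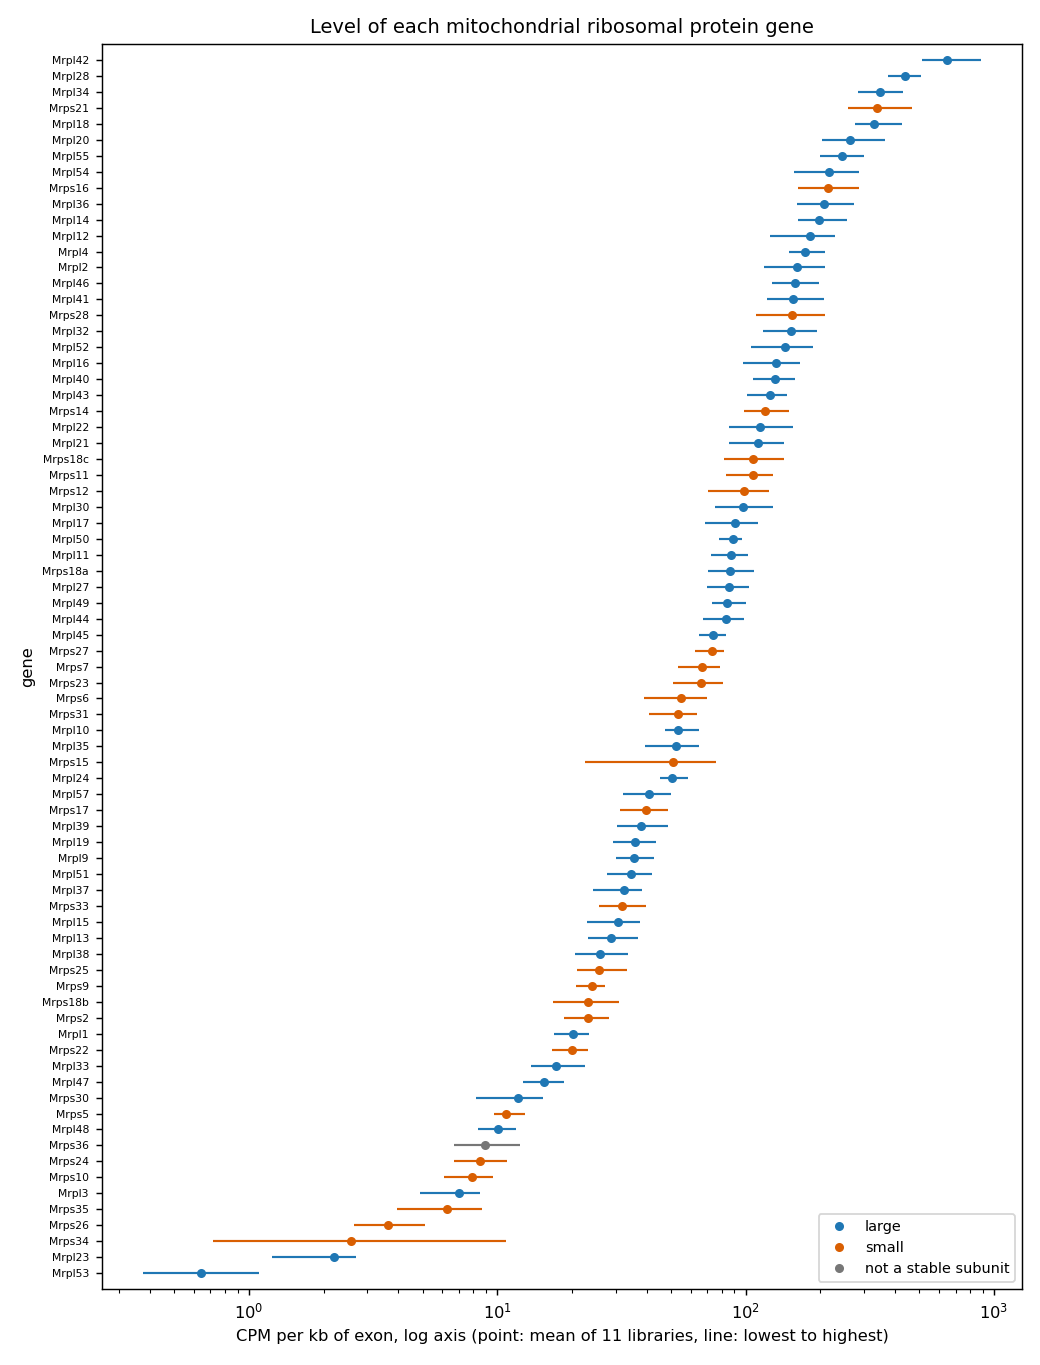
Level of each of the 77 genes in CPM per kb of exon on a log axis; points are means over 11 libraries and lines run from the lowest to the highest library, with large subunit genes in blue, small subunit genes in orange and Mrps36 in grey. Mrpl42 is highest, at 648 CPM per kb, and Mrpl53 lowest, at 0.64.

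By edgeR, no mitochondrial ribosomal protein gene passed an adjusted p of 0.05 for genotype, 0 higher and 0 lower, where 2.18% of all genes did (0.702% higher and 1.48% lower). At an unadjusted p under 0.05 there were 32 higher and 2 lower genes of 77 (41.6% and 2.60%), against 9.84% and 11.5% of all genes tested (21.4% in either direction). The 2 lower were Mrps34 and Mrps35. DESeq2 called 8 members higher and 0 lower, where it called 7.55% of all genes (2.61% higher and 4.94% lower), and limma-voom called 0. edgeR without the filter on low counts called 17 members higher and 3 lower (Mrps34, Mrps35 and Mrps15), where it called 5.35% of all genes (2.05% higher and 3.3% lower). With the filter at 1 CPM, asked of 5 or more libraries, it called 1 member higher (Mrpl32) and 0 lower, where it called 4.1% of all genes (1.27% higher and 2.84% lower). The fitted change was above 0 in 67 of 77 genes (87.0%), against 50.7% of all genes. The median log2 fold change was 0.18, with quartiles of 0.09 and 0.25, and the median over all genes was 0.00. The shift was small: 54 genes had a log2 fold change between 0.1 and 0.4, and 1 gene (Mrps34, named for its value) differed by more than 1.5-fold. The matching shares over all genes tested were not computed. In no gene of the set did all mutants lie above, or all below, all controls, where 1.29% and 1.3% of all genes did so.

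The medians of the classes lay close together. The median log2 fold change was 0.18 for both the large subunit (50 genes) and the small subunit (26 genes). It was 0.20 over the 45 genes with a bacterial counterpart and 0.16 over the 29 without. It was 0.18 over 13 genes with the NRF1 letters and 0.19 over 55 without, and 0.19 over 25 genes with the ETS letters and 0.18 over 43 without. Genes that share over 10% of their exon bases with another gene had a median of 0.18 (18 genes), the same as the other 59 genes.

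**Figure D3:**
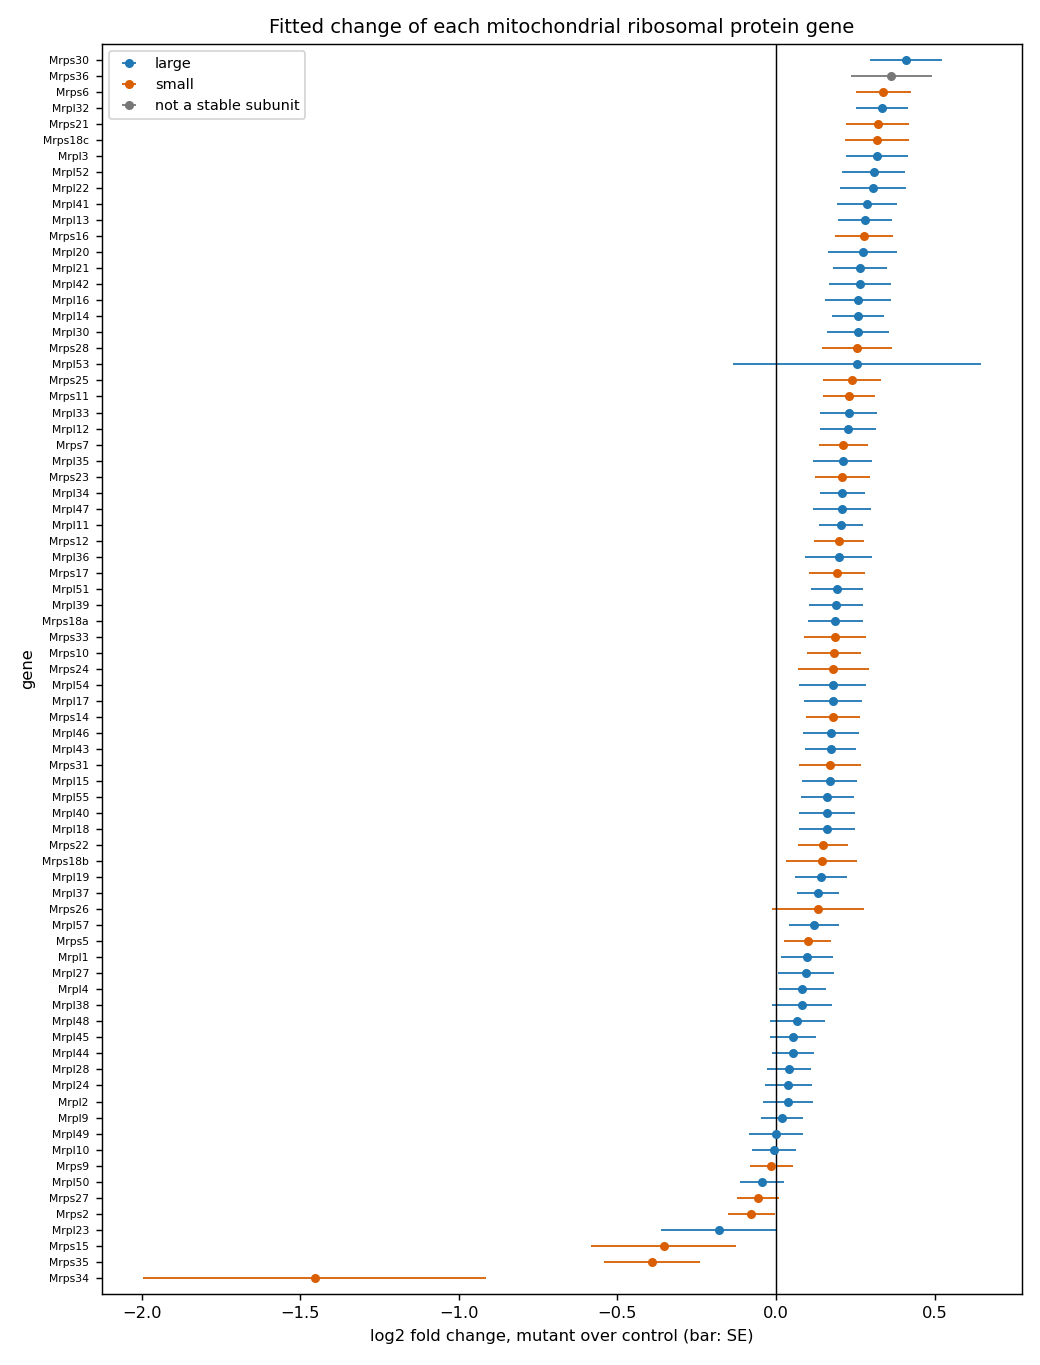
Fitted log2 fold change of each of the 77 genes, mutant over control, with its SE (edgeR, litter as a block); large subunit in blue, small subunit in orange, Mrps36 in grey. Most points lie between 0 and 0.4, and Mrps15, Mrps35 and Mrps34 lie lowest, at -0.35, -0.39 and -1.45.

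The 12 genes with the smallest p were all higher in mutants, and none passed the threshold. Mrpl32, a large subunit protein that is trimmed by a protease of the inner membrane before it joins the ribosome, came nearest (chromosome 13, 14610301 to 14613037, minus strand, mm10). Mrpl32 stood at 91.1, 101, 89.8, 95.9 and 127 CPM in controls 1 to 5 and at 112 to 149 CPM in the 6 mutants (median 130.2). Control 5 lay within the mutant range and the other controls below it, so the groups overlapped (log2 fold change 0.33, SE 0.08, adjusted p 0.0545, edgeR). Its mutants were higher in 4 of 4 litters, with log2 differences of 0.37, 0.54, 0.31 and 0.14 from litter A to litter D. The call changed with the test: the adjusted p was 0.00901 by DESeq2, 0.0501 by limma-voom, 0.0473 by edgeR with the filter at 1 CPM, 0.0316 without control 5 and 0.694 with a T-run index covariate.

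Mrps6, counterpart of bacterial S6 (chromosome 16, 92058270 to 92112227, plus strand), was next. Mrps6 stood at 44.7, 58.9, 40.9, 46 and 59.7 CPM in controls 1 to 5 and at 54.8 to 73.6 CPM in the 6 mutants (median 66.2). Controls 2 and 5 reached into the mutant range (log2 fold change 0.34, SE 0.09, adjusted p 0.0595, edgeR; adjusted p 0.042 without control 5). Slc5a3 and Gm49711, on the same strand, cover 19.9% of its exon sequence.

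Mrps30, a large subunit protein despite its name, had the highest fitted rise of the set, 0.41 (SE 0.11, edgeR adjusted p 0.071). Mrps30 stood at 15.2, 16, 13.1, 14.9 and 21.7 CPM in controls 1 to 5 and at 18.3 to 24.3 CPM in the 6 mutants (median 21.7). Again control 5 alone reached the mutants. Without it the log2 fold change was 0.54 (edgeR adjusted p 0.0283), and without litter A it was 0.32 (adjusted p 0.351).

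Mrpl3, which lies close to the catalytic centre of the large subunit, also came near the threshold. Mrpl3 stood at 40.8, 35.6, 29, 35.3 and 43.2 CPM in controls 1 to 5 and at 41 to 50.8 CPM in the 6 mutants (median 46.8). Controls 1 and 5 came near or into the mutant range. The log2 differences were 0.27, 0.81, 0.21 and 0.12 from litter A to litter D, and litter B, where control 3 was the lowest library, gave the most (log2 fold change 0.32, SE 0.10, adjusted p 0.0919, edgeR). Control 3 and mutant 6 are the only libraries of litter B, so leaving out either drops that litter from the genotype comparison. The log2 fold change was then 0.21.

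Mrps21, counterpart of bacterial S21, was higher in mutants in 4 of 4 litters. Mrps21 stood at 192, 229, 191, 211 and 269.6 CPM in controls 1 to 5 and at 227 to 344 CPM in the 6 mutants (median 273). Control 5 exceeded mutants 1, 5 and 6, and control 2 exceeded mutant 5 (log2 fold change 0.32, SE 0.10, adjusted p 0.0995, edgeR). Without litter A the log2 fold change was 0.21.

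Mrpl13, counterpart of bacterial L13, was higher in mutants in 4 of 4 litters too. Mrpl13 stood at 186, 213, 183, 204 and 232 CPM in controls 1 to 5 and at 215 to 291 CPM in the 6 mutants (median 248). Control 5 exceeded only mutant 5, and the other controls lay below all mutants (log2 fold change 0.28, SE 0.09, adjusted p 0.0915, edgeR).

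The others of the 12 had like values, with log2 fold changes from 0.26 to 0.32 and edgeR adjusted p-values from 0.102 to 0.119. They were Mrps18c, Mrpl14, Mrpl52, Mrpl21, Mrps16 and Mrpl41. Mrps16 is a small subunit protein needed for its assembly, and Mrpl41, specific to mitochondria, has also been described as a partner of Bcl2. Mrpl52 was higher in mutants in 3 of 4 litters and the other 5 in all 4. Without control 5, Mrpl52 passed (log2 fold change 0.43, edgeR adjusted p 0.0311).

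The other members were read by their place in the ribosome. Mrpl10, Mrpl11 and Mrpl12 form the stalk and its base, where elongation factors bind. Mrpl12, which is also reported to bind the mitochondrial RNA polymerase, had 253 ± 59 CPM over the 5 controls and 301 ± 37.8 CPM over the 6 mutants (means ± SD, log2 fold change 0.23, SE 0.09, adjusted p 0.174, edgeR). Mrpl10 had 90.8 ± 11.8 CPM over the 5 controls and 91.6 ± 4.85 CPM over the 6 mutants (means ± SD) and Mrpl11 230.1 ± 20.8 CPM over the 5 controls and 268 ± 17.4 CPM over the 6 mutants (means ± SD), with log2 fold changes of -0.01 and 0.20, and none of the 3 passed. Without control 5, Mrpl12 did (0.35, edgeR adjusted p 0.031).

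Mrpl22, Mrpl23, Mrpl24 and Mrpl47 lie around the exit of the tunnel through which the new chain leaves, and Mrpl45 ties the ribosome to the inner membrane there. Mrpl22 stood at 84, 99.9, 90.2, 97.9 and 120.1 CPM in controls 1 to 5 and at 102 to 152 CPM in the 6 mutants (median 122). Control 5 lay inside the mutant range (log2 fold change 0.31, SE 0.10, adjusted p 0.126, edgeR). Mrpl45 had 187 ± 11.1 CPM over the 5 controls and 196 ± 18 CPM over the 6 mutants (means ± SD, log2 fold change 0.05, SE 0.07, adjusted p 0.728, edgeR). The log2 fold changes of Mrpl24 and Mrpl47 were 0.04 and 0.21, and that of Mrpl23, with few reads, was -0.18 (SE 0.18). Of these 5 genes 0 passed.

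In the small subunit, Mrps12 lies at the decoding centre, the site where codon and anticodon are matched. Mrps12 stood at 90.5, 92.5, 73.3, 81.9 and 129 CPM in controls 1 to 5 and at 80.2 to 125 CPM in the 6 mutants (median 117). It was higher in mutants in 3 of 4 litters (log2 fold change 0.20, SE 0.08, adjusted p 0.18, edgeR), and it had the smallest p of the set for a difference between litters (edgeR adjusted p 0.112). Without control 5, the highest library for this gene, the difference between genotypes passed (0.30, edgeR adjusted p 0.0443). Mrps7, counterpart of bacterial S7, which binds the rRNA early in assembly, had 126 ± 18.8 CPM over the 5 controls and 148 ± 11.1 CPM over the 6 mutants (means ± SD, log2 fold change 0.21, SE 0.08, adjusted p 0.149, edgeR), and without control 5 its adjusted p was 0.0408. Mrps5, counterpart of bacterial S5, had 68.4 ± 6.01 CPM over the 5 controls and 74.2 ± 6.67 CPM over the 6 mutants (means ± SD, log2 fold change 0.10, SE 0.08, adjusted p 0.483, edgeR). Mrps36, the dehydrogenase protein that shares only the name, had 9.78 ± 0.971 CPM over the 5 controls and 12.7 ± 1.96 CPM over the 6 mutants (means ± SD, log2 fold change 0.36, SE 0.13, adjusted p 0.134, edgeR), and its r with the rest of the set was 0.74.

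The 3 relatives of bacterial S18 take different places: Mrps18c sits where S18 does, Mrps18b elsewhere in the small subunit and Mrps18a in the large one. Mrps18c was the highest per length, at 107 CPM per kb (range 82 to 143), then Mrps18a at 86.8 CPM per kb (range 70.8 to 108) and Mrps18b at 23.3 CPM per kb (range 16.7 to 30.9). The ranges of Mrps18a and Mrps18c overlapped and that of Mrps18b lay below both. This order rests on the merged exon length, 3690 bases in Mrps18a, 2089 in Mrps18b and 1076 in Mrps18c. In CPM, not divided by length, Mrps18a was the highest of the 3. Exon bases shared with another gene came to 30.5% in Mrps18b and 23.2% in Mrps18c. Their means were 294 ± 44.8 CPM over the 5 controls and 342 ± 42.2 CPM over the 6 mutants (means ± SD) for Mrps18a. For Mrps18b they were 45.3 ± 11.9 CPM over the 5 controls and 51.3 ± 8.11 CPM over the 6 mutants (means ± SD), and for Mrps18c they were 101 ± 13 CPM over the 5 controls and 127 ± 15.3 CPM over the 6 mutants (means ± SD). The log2 fold changes were 0.19, 0.14 and 0.32 for Mrps18a, Mrps18b and Mrps18c, and none passed (edgeR adjusted p 0.235, 0.497 and 0.102). Whether the 3 differ from each other was not tested.

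Some abundant members had a fitted change close to 0. Mrpl28 had 545 ± 63.3 CPM over the 5 controls and 570.4 ± 61.4 CPM over the 6 mutants (means ± SD, log2 fold change 0.04, SE 0.07, adjusted p 0.785, edgeR). Mrpl44, which has the fold of an RNase, and Mrpl9 had the lowest spread between libraries once litter and genotype were removed, an SD of 0.0848 and 0.0854 on the log2 scale, against a median of 0.161 over the set. Their log2 fold changes were 0.05 (SE 0.06) for Mrpl44 and 0.02 (SE 0.07) for Mrpl9, with edgeR adjusted p of 0.69 and 0.911.

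Among members with a mean of at least 5 CPM, the 3 that varied most were small subunit genes with lower values in several mutants. Below that level Mrpl53 had a residual SD of 0.355 on the log2 scale, between those of Mrps15 (0.51) and Mrps35 (0.321). Mrps34 stood at 22.4, 4.17, 9.32, 3.6 and 2.94 CPM in controls 1 to 5 and at 2.49, 1.85, 2.82, 1.49, 5.4 and 1.96 CPM in mutants 1 to 6. Control 1 was far above the rest, and the other libraries overlapped (log2 fold change -1.45, SE 0.54, adjusted p 0.155, edgeR). Without control 1 the log2 fold change was -0.75. Mrps35 (chromosome 6, 147042764 to 147073991, plus strand) stood at 73.3, 59.2, 69.8, 65.8 and 46 CPM in controls and at 53.1, 40.2, 46.1, 35.1, 75 and 34.2 CPM in mutants. Mutant 5 was the highest library of all and control 5 was the lowest control (log2 fold change -0.39, SE 0.15, adjusted p 0.169, edgeR). Without control 3 or mutant 6, the pair of litter B, it was -0.25. Mrps15 (chromosome 4, 126046925 to 126055532, plus strand) stood at 101, 104, 97.5, 93.9 and 85 CPM in controls and at 113, 55.2, 82.4, 51.7, 128 and 38.2 CPM in mutants. Its controls lay close together, while mutants 1 and 5 lay above them and mutants 2, 4 and 6 far below (log2 fold change -0.35, SE 0.23, adjusted p 0.402, edgeR). Its log2 fold change ran from -0.55 to -0.14 with 1 library left out. In all 3 genes the lowest 3 libraries were mutants 2, 4 and 6, from 3 different litters.

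**Figure D4:**
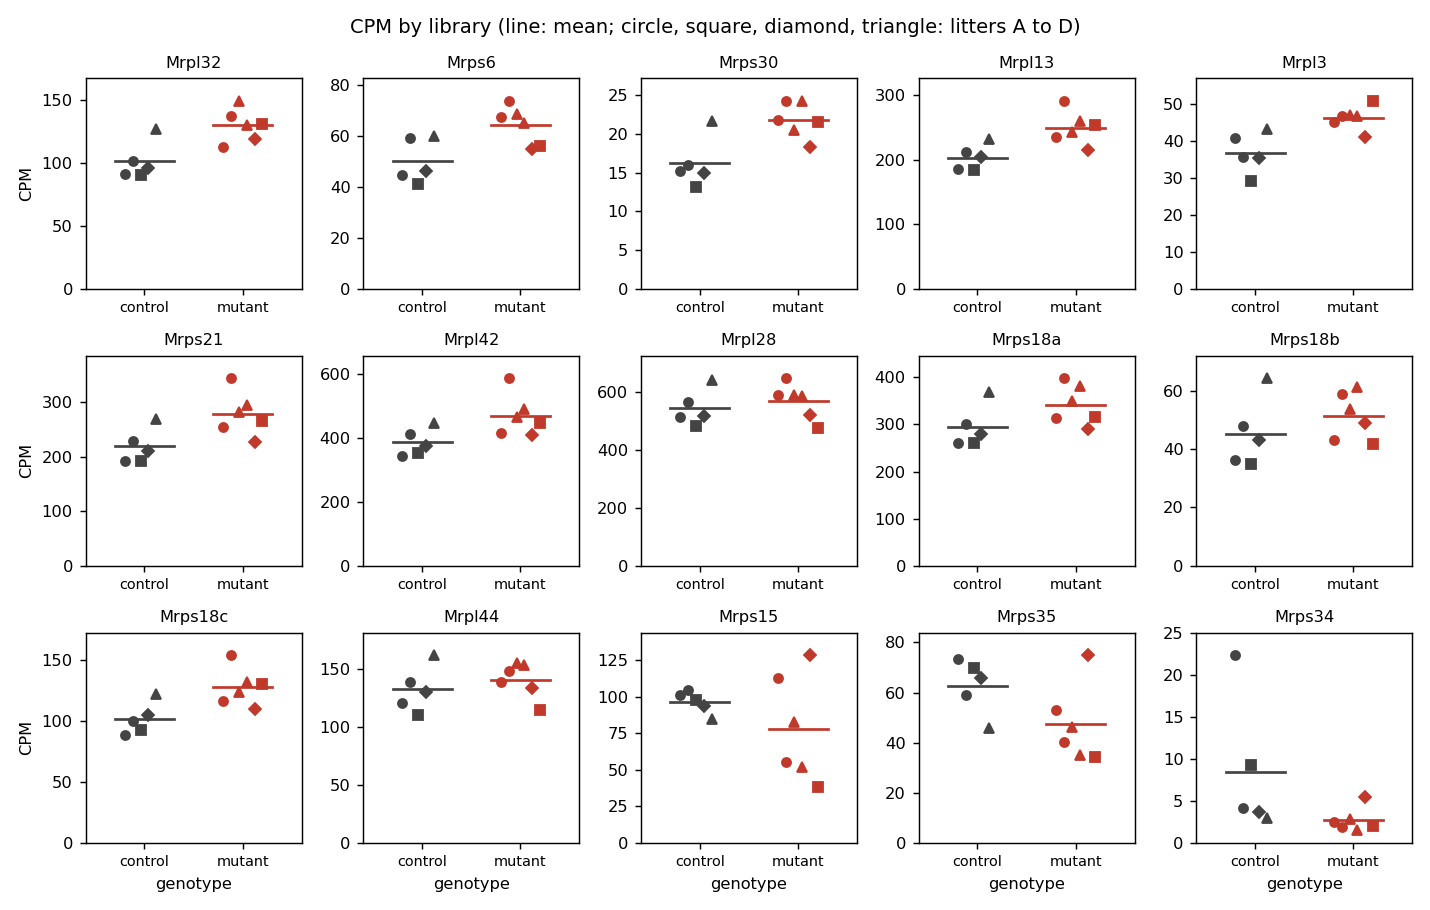
CPM in every library for 15 genes of the set, controls in black and mutants in red, with the mean as a line and the litter as the symbol (circle A, square B, diamond C, triangle D). In Mrpl32 and Mrps30 control 5 (black triangle) lies among the mutants; in Mrps15 mutants 2, 4 and 6 lie at 38.2 to 55.2 CPM, below all other libraries.

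Litter by litter, the median over the 77 genes of mutant minus control was 0.32 on the log2 scale in litter A, 0.25 in litter B, 0.09 in litter C and -0.03 in litter D. The medians over all genes ran from -0.01 to 0.01. The mutant was higher for 71 of 77 genes in litter A (50.6% of all genes), 66 in litter B (49.7%), 62 in litter C (49.6%) and 28 in litter D (48.3%). Of the 77, 22 (28.6%) were higher in all 4 litters, where 12.5% of all genes were. None was lower in all 4, where 13.5% of all genes were. The T-run index of mutants minus controls was -1.06, -0.99, -0.41 and -0.11 bases in litters A to D, the same order. That index is computed from these same counts, members included. The 78 cytoplasmic ribosomal protein genes tested had medians of 0.39, 0.38, 0.15 and -0.03 in those litters, so the shift was not limited to the mitochondrial set. A genotype by litter interaction passed for 0 of 77 genes by edgeR (smallest adjusted p 0.95), where 0.0% of all genes passed, and 2 of 77 had an unadjusted p under 0.05 (2.60%, against 3.82% of all genes). Litters B and C give 1 library of each genotype, so their values have no replicate of their own. Between litters, with genotype in the fit, 0 of 77 genes differed by edgeR, where 0.0885% of all genes did, and 19 of 77 (24.7%) had an unadjusted p under 0.05, against 13.5% of all genes. Without the filter on low counts, 3 of 77 members passed for the interaction, where 1.5% of all genes did, and 15 of 77 passed between litters, where 5.41% did (edgeR).

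When the T-run index was added to the fit, the median log2 fold change of the set was -0.08, 16 of 77 genes lay above 0, and the smallest adjusted p was 0.334 (edgeR). Index and genotype overlap in these libraries: control 5 lies below mutants 1, 5 and 6, and the other controls above all mutants. The index also comes from the same counts, so index and genotype cannot be told apart in this fit. Fitted changes were also read by a gene's longest T run in any reference transcript, and the part of such runs was not tested. The 6 members with a run of 15 or more (Mrpl32, Mrpl42, Mrpl51, Mrpl1, Mrpl13 and Mrps16) were all fitted above 0, with a median log2 fold change of 0.27, while the 1807 tested genes with such runs had a median of -0.13. For runs of up to 5 bases the medians were 0.19 over 24 members and 0.06 over 4232 genes. For runs of 6 to 9 they were 0.18 over 31 members and 0.01 over 6274 genes, and for 10 to 14 they were 0.15 over 16 members and -0.01 over 2978 genes.

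Co-variation was examined on what was left of log2 CPM after litter and genotype had been removed as additive terms (6 residual degrees of freedom). Differences between litters in the genotype effect therefore remain in these values. In litters B and C, with 1 library of each genotype, the values left for control and mutant are equal and opposite. Each gene was compared with the mean of the other members over the 11 libraries. The points share libraries, depth and composition, so that r is a description. The median r was 0.88 over the 77 genes, and -0.03 over all 15821 genes tested. It was over 0.9 in 36 of the 77, against 3.44% of all genes, and over 0.5 in 67 (87.0%), against 22.5%. The large subunit had a median of 0.91 and the small subunit 0.86. Mrpl36, Mrpl55 and Mrpl17, all of the large subunit, had the highest values, 0.98, 0.98 and 0.98. The neighbours Mrps11 and Mrpl46, whose promoter windows overlap, had 0.82 and 0.96, with log2 fold changes of 0.23 and 0.17.

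The 10 members with r under 0.5 were Mrps34 (-0.73), Mrps35 (-0.62), Mrps15 (-0.46), Mrps26 (-0.40), Mrpl23 (-0.08), Mrpl53 (0.09), Mrpl3 (0.15), Mrps24 (0.26), Mrps2 (0.31) and Mrps27 (0.41). Of these, 7 are small subunit genes by name and place, and Mrpl53, Mrpl23, Mrps34 and Mrps26 are also the 4 with the lowest level per length. Mrps2 and Mrps27 varied little, with a residual SD of 0.108 and 0.0883 on the log2 scale.

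**Figure D5:**
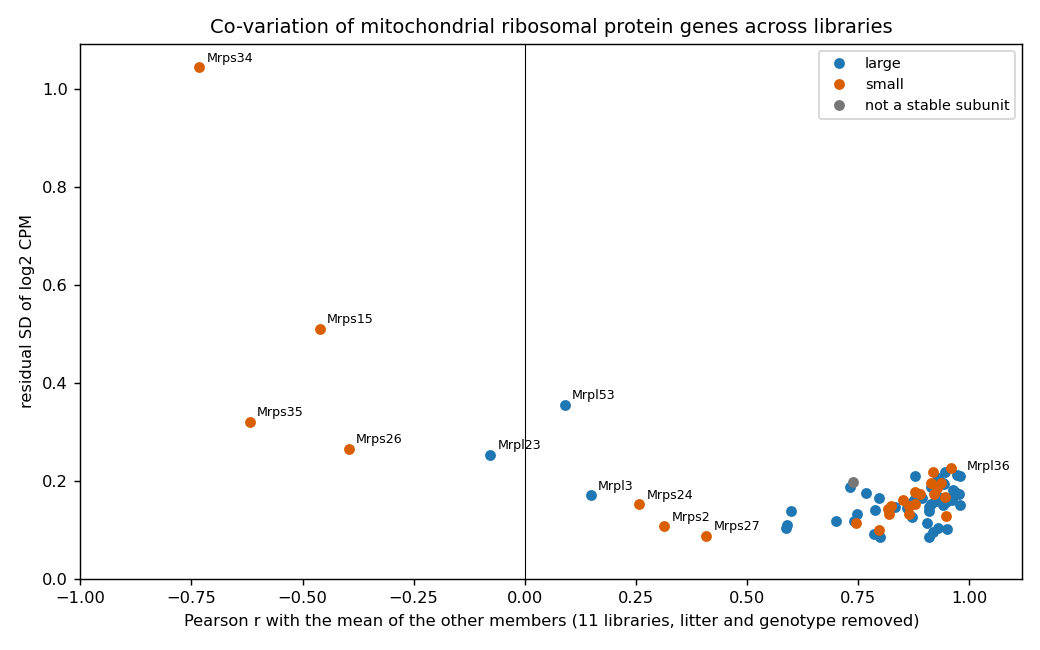
For each of the 77 genes, Pearson r with the mean of the other members over 11 libraries after litter and genotype were removed (horizontal) and the residual SD of log2 CPM (vertical); blue large subunit, orange small subunit, grey Mrps36. Of the 77, 67 lie at r above 0.5, and Mrps34, Mrps15 and Mrps35 lie far left with an SD of 0.32 to 1.04.

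The set did not vary alone. Cytoplasmic ribosomal proteins had a median r of 0.93 with the mean of the mitochondrial set (78 genes), nearly all above 0 (76). Lists described below differed. The median r was 0.88 over 6 mitoribosomal proteins with other names and 0.66 over 2 mitochondrial rRNAs. It was 0.08 over 26 assembly factors, 0.10 over 14 translation factors and -0.28 over 17 aminoacyl-tRNA synthetases. It was 0.10 over 8 genes of mitochondrial DNA transcription and replication, -0.57 over 9 regulators and 0.003 over 7 mitochondrial mRNAs. The genes outside the set with the highest r were Gtf2a2 (0.995), a subunit of the general transcription factor TFIIA, Uqcc2 (0.99), an assembly factor of respiratory complex III, Nabp2 (0.99), a single-stranded DNA binding protein, Uchl5 (0.99), a ubiquitin hydrolase of the proteasome, and Rps19 (0.99), of the cytoplasmic small subunit. None of the 5 passed for genotype (edgeR adjusted p 0.128 to 0.718), and without control 5 Rps19 did (0.37, adjusted p 0.0437). Gmnn itself had 0.93 after the same additive removal of litter and genotype.

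Other parts of the mitochondrial translation system were followed in lists, where the share of all genes called is again 2.18%. Of 6 mitoribosomal proteins with other names, 0 passed and 4 were fitted higher (median log2 fold change 0.10). Chchd1, of the small subunit, had 264 ± 35.9 CPM over the 5 controls and 329 ± 42.6 CPM over the 6 mutants (means ± SD, log2 fold change 0.30, SE 0.09, adjusted p 0.0989, edgeR). Ptcd3, a small subunit protein with RNA-binding repeats, had 170.1 ± 8.29 CPM over the 5 controls and 143 ± 17.9 CPM over the 6 mutants (means ± SD) and lay on the other side (log2 fold change -0.25, SE 0.08, adjusted p 0.0929, edgeR). Gadd45gip1, of the large subunit, had the lowest log2 fold change of the 6, -0.75, and did not pass.

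Of 26 assembly factors, 1 passed, 13 were fitted higher and the median was 0.01. The gene that passed was Noa1, a GTPase needed for mitochondrial ribosome assembly. Noa1 stood at 12.5, 10.7, 10.7, 10.8 and 15.1 CPM in controls 1 to 5 and at 14.4 to 19.4 CPM in the 6 mutants (median 16.5). Mutant 6, the lowest mutant, lay below control 5, and the groups overlapped (log2 fold change 0.47, SE 0.11, adjusted p 0.0495, edgeR). Its log2 differences were 0.63, 0.42, 0.51 and 0.21 from litter A to litter D. It lost the call without the litter block (adjusted p 0.0593), with the T-run index covariate (0.502) and on leaving out 10 of the 11 libraries in turn (0.0594 to 0.181).

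Of 14 translation factors 0 passed (median 0.07), of 17 mitochondrial aminoacyl-tRNA synthetases 0 (median -0.06), and of 8 genes of mitochondrial DNA transcription and replication 0 (median -0.04). Among 9 regulators of nuclear genes for mitochondria 0 passed (median 0.00). Of these, 5 were fitted higher, and the log2 fold changes ran from -0.36 to 0.48. Nrf1, a factor whose letters were searched above, had 107 ± 4.74 CPM over the 5 controls and 88.5 ± 8.72 CPM over the 6 mutants (means ± SD, log2 fold change -0.28, SE 0.07, adjusted p 0.0672, edgeR). At an unadjusted p under 0.05, where 9.84% of all genes were higher and 11.5% lower, 4 of 26 assembly factors were higher and 4 lower. At the same threshold 3 translation factors were higher and 1 lower, 1 synthetase was higher and 2 lower, 1 gene of mitochondrial DNA transcription and replication was higher and 1 lower, and 1 regulator was higher and 2 lower. Of the 78 cytoplasmic ribosomal protein genes 0 passed the adjusted threshold, and 45 were higher and 1 lower at the unadjusted one.

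The partners of these proteins in the ribosome are the 2 mitochondrial rRNAs. Libraries were depleted of rRNA before sequencing, so their counts are what was left after that step. mt-Rnr1, the rRNA of the small subunit, rose in mutants. mt-Rnr1 stood at 136, 134, 131, 133 and 204 CPM in controls 1 to 5 and at 177 to 258 CPM in the 6 mutants (median 215). Control 5 lay within the mutants and the other controls below all of them (log2 fold change 0.57, SE 0.12, adjusted p 0.0406, edgeR). The log2 differences were 0.93, 0.74, 0.41 and 0.04 from litter A to litter D. Without control 5 the log2 fold change was 0.75 (edgeR adjusted p 0.00787). The call was lost without litter A (0.36, adjusted p 0.208), without the litter block (adjusted p 0.0574), with the T-run index covariate (0.24, adjusted p 0.552) and on leaving out 9 of the 11 libraries in turn. mt-Rnr2, of the large subunit, had 2574 ± 423 CPM over the 5 controls and 3312 ± 349 CPM over the 6 mutants (means ± SD, log2 fold change 0.35, SE 0.11, adjusted p 0.0948, edgeR) and did not pass. Of the 13 mitochondrial mRNAs, the products this ribosome makes, 7 had enough reads to be tested. None passed, 6 were fitted higher, and the median was 0.19. Their summed level was 13119 to 17256 CPM in controls and 14440 to 17625 CPM in mutants.

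Markers of other cells in the bud were read beside these values. Red blood cell markers (11 genes) summed to 13138 to 33711 CPM in controls and 16456 to 57426 CPM in mutants. None of the 11 passed, and the highest library was mutant 2, also the highest in the mitochondrial set. Endothelial markers summed to 199 to 319 CPM and 188 to 292 CPM, and surface ectoderm markers to 183 to 299 CPM and 184 to 314 CPM, in controls and mutants. Macrophage markers summed to 5.75 to 24.6 CPM and 8.44 to 28.6 CPM, and neural crest markers to 24.6 to 53.5 CPM and 18.9 to 25.7 CPM, with Foxd3 under 0.5 CPM in every library. Muscle precursor markers summed to 44.0 to 123 CPM and 39.8 to 76.5 CPM, and 2 of 8 were called lower, where 1.48% of all genes were. The part of these cells in the result was not tested. The set's median log2 fold change was 0.11 on leaving out mutant 2 and also 0.11 on leaving out litter A. Without control 5 it was 0.26, and edgeR called 8 members higher and 0 lower, where it called 5.35% of all genes (1.83% higher and 3.51% lower). The 8 were Mrps30, Mrpl12, Mrpl52, Mrpl32, Mrps7, Mrps6, Mrps23 and Mrps12. Without litter D as a whole the set's median was 0.25, and 0 members were called (smallest adjusted p 0.054, edgeR).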

How the data were processed

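RNA-seq of 11 forelimb bud libraries (5 control, 6 mutant) was used. Per the labels' protocols, total RNA with an integrity number of at least 8 was depleted of rRNA and sequenced. In the deposited table each gene name has raw read counts for each library, made with featureCounts 1.4.6-p4 on mm10 and GENCODE M9 at a mapping quality of at least 10, without strand, per the file headers. Reads were aligned with STAR 2.5.4b, per the submitters' processing notes. Exon length in bases per gene is another column (other) of the deposited table.

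Computed here were TMM factors, CPM, log2 CPM (prior count 2) and edgeR 4.0.16 quasi-likelihood tests on 15821 genes kept by filterByExpr, with litter as a block and Benjamini-Hochberg adjustment in R 4.3.3, with limma 3.58.1 and DESeq2 1.42.0 as alternatives. The lowest library had 14721181 counts, of which 99.9% were in tested genes. Summed totals per gene limit precision: members had 92 to 101384 reads over all libraries. Litter and embryo number come from the titles. The header lists 12 alignment files and the design 6 pairs, and 11 libraries were analysed here. Across genes, deviations from group means correlated at a median of 0.13 over 8 same-litter pairs of libraries and -0.02 over 22 other pairs. No 2 libraries of a group agreed to within sampling noise (lowest chi-square per degree of freedom 5.16).

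Named genes are Gmnn, the 12 members with the smallest p, the 4 highest and 4 lowest per kb, the 3 most and 2 least variable among members with a mean of at least 5 CPM, the S18 relatives, list genes past the threshold (at most 4 a list) and the 5 most alike genes. Others were named after their values were seen. The members, lists and tests were chosen with earlier results of these data known. As a check of the code, the fit was also run on simulated counts without litter effects, and no result of that run is used here.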

Additional observations from a re-analysis of the deposited data

Results flagged for a closer look

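In 160 comparisons of the highest or lowest library with the rest of its genotype (40 measures), 6 values from 4 libraries stood apart by Dixon's criterion, where about 1 in 20 groups, 4 in all, would by chance. Mrps26 was lowest in mutant 4, at 3.54 log2 CPM (11.5 CPM, next 15.9 CPM). Mrpl9 was lowest in mutant 6, at 6.39 log2 CPM (83.6 CPM, next 95.9 CPM), in a gene whose spread is among the smallest of the set. Gtf2a2 was highest in mutant 2, at 8.06 log2 CPM (268 CPM, next 220.2 CPM), the library that was also highest for the summed mitochondrial ribosomal proteins. Haemoglobin genes took 5.44% of counts in mutant 2 and 2.76% in the next mutant.

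In control 5, mt-Rnr1 was at 7.68 log2 CPM (204 CPM, next control 136 CPM), and both mitochondrial rRNAs together came to 3504 CPM, where the next control had 2709 CPM. Control 5 was also highest of the controls for the summed mitochondrial ribosomal proteins, and lowest for the T-run index.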

How the results depend on the processing

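The alternatives were RLE and upper-quartile scaling, 2 other filters, DESeq2, limma-voom, no replicate block, the T-run index covariate, and each library or litter left out. The count of members called higher, 0, became 17 without the filter on low counts, 1 with the filter at 1 CPM and 8 with DESeq2. It was 0 to 8 with 1 library left out (8 without control 5) and 0 with any litter left out. The count called lower, 0, became 3 without the filter. Without that filter 29256 genes were tested, 3 members passed for the interaction (1.5% of all genes) and 15 between litters (5.41%), in place of 0 and 0. Over all genes the count of 345 became 1566 without the filter, 550 with the 1 CPM filter, 1194 with DESeq2, 13 with no replicate block, 3 with the T-run covariate, 1 to 846 with 1 library left out, and 9, 3, 1 and 163 without litters A to D. With no replicate block (unpaired), no member was called and the median of the set was 0.20. The median of the set reversed only with the T-run covariate, to -0.076, and those of the large and small subunit to -0.10 and -0.052; with 1 library left out it was 0.11 to 0.26. The cause was not tested. Named genes whose fitted change turned with the T-run covariate were Mrps21 -0.0472, Mrps18c -0.0437, Mrpl52 -0.0283, Mrpl21 -0.0147, Mrps16 -0.0244, Mrpl41 -0.0507, Mrpl42 -0.0726, Mrpl28 -0.13, Mrps34 0.52, Mrps35 0.0672, Mrps15 0.16, Mrpl44 -0.0897, Mrpl9 -0.11, Mrps18a -0.10, Mrps18b -0.23, Gtf2a2 -0.12, Uqcc2 -0.0525, Nabp2 -0.0711, Uchl5 -0.27, Rps19 -0.0534. Without litter A, values turned in Mrpl28 -0.0527, Mrpl53 -0.0426, Mrpl44 -6.37e-05, Mrpl9 -0.0447, Uchl5 -0.0547. With 1 library left out, Mrpl28 ran from -0.00443 to 0.0975, Mrpl9 from -0.013 to 0.0833 and Uchl5 from -0.00568 to 0.19, turning without mutant 2 and, for Mrpl28 and Mrpl9, without control 1. Scaling moved the median of all genes by at most 0.04. The interaction could not be fitted without a library that is alone in its litter and genotype. Leaving out such a library also drops its litter from the genotype comparison, so these fits are not separate checks. The median of the set was 0.16 without control 3, without mutant 6 and without litter B. Depth limits Mrpl53 most, with 92 reads over all libraries.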

Other observations

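The 3 libraries lowest for Mrps15, Mrps34 and Mrps35, mutants 2, 4 and 6, were also the lowest for Gadd45gip1, a further large subunit protein. This was noticed in the values and chosen after seeing them. Gadd45gip1 stood at 49.8, 50.9, 45.1, 51.5 and 43 CPM in controls 1 to 5 and at 50.2, 15.1, 43.3, 17.8, 53.8 and 8.47 CPM in mutants 1 to 6. Of 15821 genes tested, 317 (2.0%) had these 3 libraries lowest, and 212 had them highest, and among the 77 members 3 had them lowest and 5 highest. Gadd45gip1 had the widest gap of the 317 between the highest of the 3 (17.8 CPM) and the lowest of the other 8 (42.95 CPM), and it was the only one with a gap of at least 1 on the log2 scale (pseudocount 0.5). Pfn1, an actin-binding protein, had rank 2 (468 CPM against 777 CPM) and Mrps15 had rank 3 (55.2 CPM against 82.4 CPM). The labels give these 3 embryos nothing in common beyond genotype: they come from litters A, D and B.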
